A study of Homo sapiens with 2 samples.

Results

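The 5 human genes that encode proteins with a YTH domain, YTHDF1, YTHDF2, YTHDF3, YTHDC1 and YTHDC2, were examined for binding of their RNA by HNRNPC. Peaks of an HNRNPC RNA immunoprecipitation sequencing (RIP-seq) experiment were taken when their summit lay within the annotated GRCh38 span of one of these genes. This gave 25 peaks of 23148 in all, and each of the 5 genes held at least 1. The experiment used A549, a long-established line of human lung cancer cells of the non-small cell type. One library came from RNA pulled down with 5 µg of an antibody against HNRNPC and 1 from the input RNA, with no genetic change or drug treatment named for either. The values are those of the peak list of the immunoprecipitate (IP), and values of the input library were not used here. With 1 library in each group there was no replicate check and no test, and the intervals given cover counting error only. A peak list cannot be set against cell type markers, so the identity of the line was taken from its label.

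The YTH domain is a fold with an aromatic pocket that holds N6-methyladenosine (m6A), the commonest internal modification of messenger RNA. YTHDF1, YTHDF2 and YTHDF3 are closely similar proteins of the cytoplasm, whereas YTHDC1 is nuclear and YTHDC2 is a large RNA helicase. HNRNPC is an abundant nuclear protein that packages new transcripts and binds runs of U. It has been described as an indirect m6A reader, because m6A can open a hairpin and expose a run of U next to it. Readers of one kind are therefore examined here as RNA targets of another protein linked to the same mark.

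In 4 of the 5 genes a peak summit lay within 500 bp of the 5′ end of the span, as it did in 45.0% of all genes with a peak and a known strand. For YTHDF1 and YTHDC2 the peak reached into the reference window of the start, so the bases from the 21st to the 50th of the transcript are shown for all 4 genes with a RefSeq promoter record on GRCh38.p14. Peaks were placed by position alone, without use of strand. The bases are written 5′ to 3′ on the strand of the gene, with those inside a peak in capitals.
YTHDF1, chr20:63216082-63216111, minus strand: TGGAGTCGACGCCTCCTCAGTGCGTCCGCG
YTHDC2, chr5:113513714-113513743, plus strand: atcaatggCGCAGGCTTCACTTCTGCTGTG
YTHDC1, chr4:68350041-68350070, minus strand: tcgcgcaggaagcaggctccattttagcgc
YTHDF2, chr1:28736644-28736673, plus strand: acctcgtggtgcgaccctggtcgtcccaaa
All 50 first bases of YTHDF1 lay in its peak, as did 6 bases upstream of the start, whereas in YTHDC2 22 of the first 50 bases did. In YTHDC1 and YTHDF2 none did, and the YTHDC1 peak began just beyond the stretch shown. The longest run of T (U in the RNA) in the first 50 bases was 2 in YTHDF1, 2 in YTHDC2, 3 in YTHDF2 and 4 in YTHDC1. A run of TTTT on the gene's strand, overlaps allowed, was thus present in YTHDC1 and absent from the other 3. Among all 35116 reference windows, 12.3% hold TTTT in these 50 bases, and among the 4682 windows of protein-coding genes with a peak 10.8% do. G and C made up 76.0% of the first 50 bases of YTHDF1, 60.0% in YTHDC2 and 56.0% in both YTHDC1 and YTHDF2, against a median of 60.0% over all windows and 66.0% over those of genes with a peak. The YTHDF1 stretch holds the summit of its peak and the YTHDC2 stretch ends on the summit of its first peak. The sequence further into the genes was not analysed here.

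All 5 YTH genes carried a peak. Over the genome, 3685 of 20037 protein-coding genes (18.4%) did so, but presence of a peak also requires that the gene is expressed, which was not measured. Genes of longer span carry peaks more often, and protein-coding genes were therefore split into 10 classes of equal size by span. The share with a peak was 13.4% in the class of YTHDF1, 19.8% in that of YTHDF2, 27.9% in the class that holds both YTHDF3 and YTHDC1, and 32.5% in that of YTHDC2. The 11 peaks of the YTHDF genes and the 14 of the YTHDC genes made up 0.108% of the 23111 peaks on chromosomes 1 to 22, X and Y. None of the 25 summits lay in the span of any other annotated gene.

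**Figure D1:**
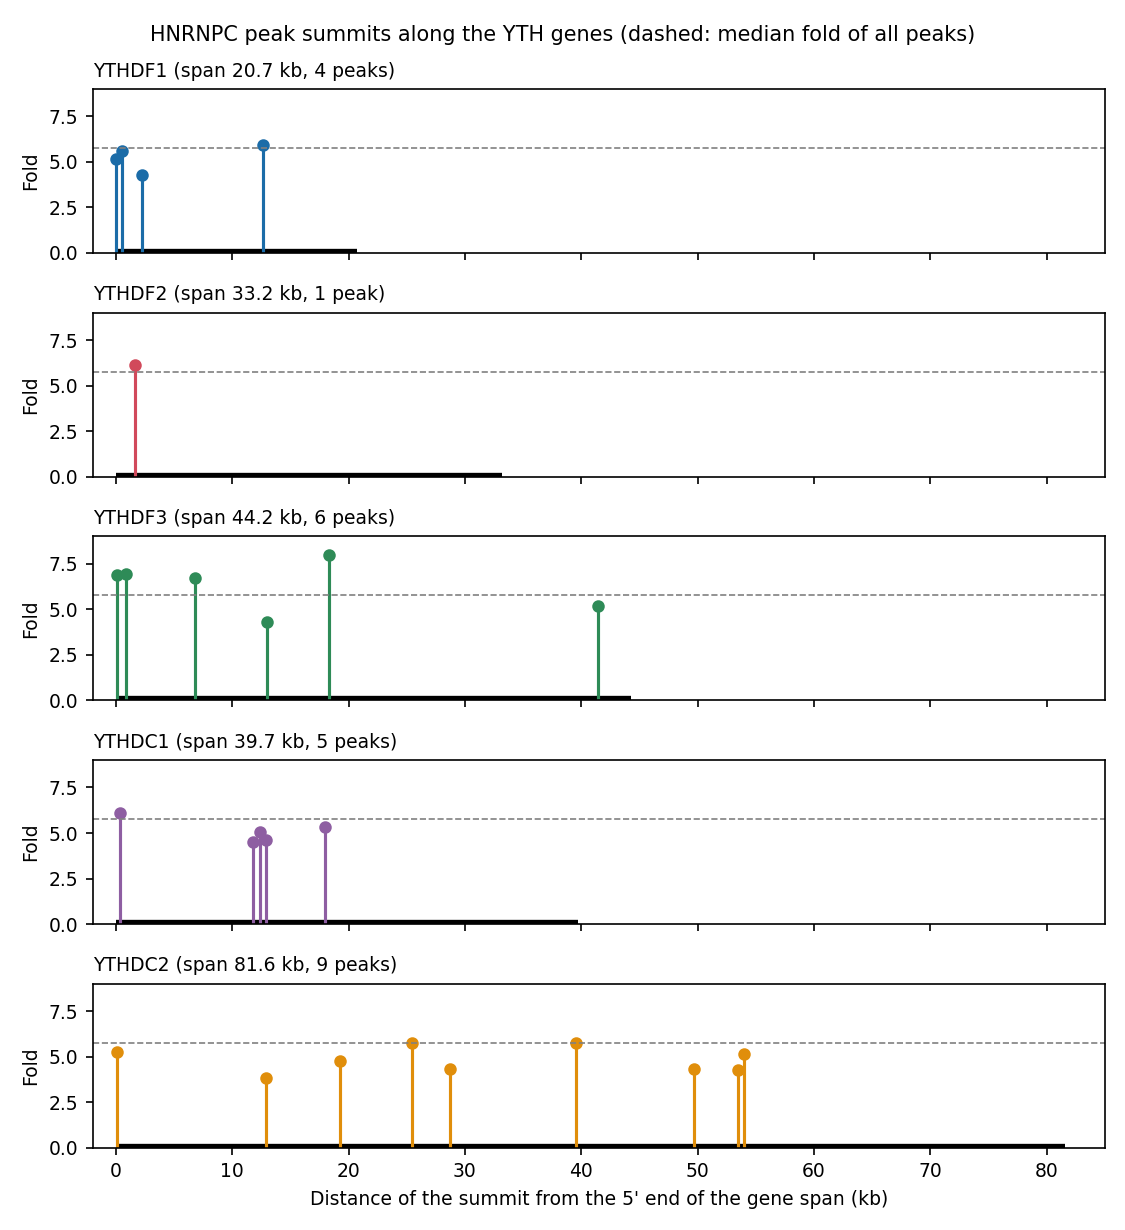
Each panel shows 1 YTH gene as a black bar from its 5′ end, with peak summits as points whose height is the fold enrichment; the horizontal axis is the distance from the 5′ end in kb and the dashed line is the median fold of all peaks, 5.76. YTHDF1, YTHDF3, YTHDC1 and YTHDC2 have a summit within 500 bp of the start, and YTHDF3 has the only summit near a 3′ end.

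Each peak has a fold enrichment, the ratio of IP to background at the summit as the authors' peak caller gave it. Fold and p together allowed the reads at each summit to be worked out. In all 23148 peaks they fit a whole number of IP reads n, with a fold of (0.535 n + 1) / (control level + 1) and a Poisson p. Under this form an IP read counts 0.535 control reads, so the IP library was 1.87 times as deep as the control. The control level had a floor of 0.103, which stands for a summit with no control read of its own. These counts are inferred, and whether the control was the input library is not given in the sources used here.

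YTHDF1, a cytoplasmic reader known for promoting translation of m6A-marked messages, is NCBI gene 54915 on the minus strand of chromosome 20, 63195429 to 63216131. It held 4 peaks over 20.7 kb. The first, at 63215842 to 63216137, crossed the start of the gene, with its summit 35 bp inside, a fold of 5.15 and 27 IP reads (95% exact Poisson interval 17.8 to 39.3) over a control level of 2.0. A narrower peak 550 bp from the start had a fold of 5.59, with 19 IP reads over a level of 1.0. The third, 2236 bp from the start, had the lowest fold of the gene, 4.26, with 22 IP reads over 2.0. The strongest lay 12.7 kb from the start at 63203388 to 63203804 and was 417 bp wide. It had a fold of 5.95, a −log10 q of 7.94 and 39 IP reads (27.7 to 53.3), the most at any YTH summit, over a level of 2.68. YTHDF1 thus combined the highest IP coverage in the family with folds near or below the median of all peaks.

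YTHDF2, the reader known for sending m6A-marked messages to decay, is NCBI gene 51441 on the plus strand of chromosome 1, 28736624 to 28769775. It held 1 peak, the narrowest of the 25 at 47 bp, at 28738302 to 28738348. The summit lay 1681 bp from the 5′ end of the span, with a fold of 6.12 and 21 IP reads (13.0 to 32.1) over a control level of 1.0. The remaining 31.5 kb of the gene held no summit. Despite its single peak, YTHDF2 had a highest fold equal to that of YTHDC1 and above those of YTHDF1 and YTHDC2.

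YTHDF3, a cytoplasmic paralog of both, is NCBI gene 253943 on chromosome 8, 63168553 to 63212788. Its 5′ end was taken as the end beside its divergent transcript YTHDF3-DT, 110 bp away. It held 6 peaks and the highest fold of the family. The first at 63168658 to 63168900 had its summit 129 bp from the start, a fold of 6.91 and 25 IP reads (16.2 to 36.9) over a level of 1.08. A second 841 bp from the start had a fold of 6.96 with 14 IP reads over 0.221, and the next, 6.83 kb in, had 6.73 with 12 IP reads at the floor. The fourth, 13.0 kb in, was weak, with a fold of 4.30, a q of 0.00577 and 7 IP reads.

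The strongest YTH peak was the fifth of YTHDF3, at 63186129 to 63187585, with a fold of 8.0, a −log10 q of 8.55 and 28 IP reads (18.6 to 40.5) over a level of 1.0. At 1457 bp it was also the widest of the 25, and no other YTH peak exceeded 417 bp. It was the one YTH peak above the upper quartile of all folds, 7.22, and 19.0% of all peaks had a fold at least as high. The last YTHDF3 peak lay 2.82 kb from the 3′ end, with a fold of 5.20 and 22 IP reads over 1.46. In all, 4 of the 6 YTHDF3 folds exceeded the median of all peaks, compared with 1 of 4 in YTHDF1.

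YTHDC1, the nuclear reader known for roles in splicing and export, is NCBI gene 91746 on the minus strand of chromosome 4, 68310387 to 68350090. It held 5 peaks. The first, at 68349687 to 68350035 and 349 bp wide, had its summit 353 bp from the start and the highest fold of the gene, 6.12. Its 21 IP reads over a control level of 1.0 were the same as at the YTHDF2 summit. Then followed a run of 3 peaks between 11.8 and 12.9 kb from the start, at 68337136 to 68338411, with folds of 4.52, 5.05 and 4.62 and 15, 17 and 24 IP reads. The last peak, 17.9 kb in, had a fold of 5.32 with 18 IP reads. Every YTHDC1 summit had a control level of 1.0 or 2.0, so each lay where the control was itself covered.

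YTHDC2, an RNA helicase known for its part in meiosis, is NCBI gene 64848 on the plus strand of chromosome 5, 113513694 to 113595284. It is the longest of the 5 genes and held the most peaks, 9, although with q of 0.001 or less it kept 5, as many as YTHDF3. The first, at 113513722 to 113513860, had its summit 49 bp from the start, a fold of 5.27 and 9 IP reads (4.12 to 17.1) at the floor. Its highest fold, 5.76, was reached at 113539096 to 113539151 and again at 113553216 to 113553335, each with 10 IP reads at the floor. The other folds ran from 3.82, the lowest of the family, to 5.15, and 3 of the 9 peaks shared a q of 0.00577 with 6 or 7 IP reads. No YTHDC2 peak exceeded 139 bp in width.

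YTHDC2 summits had the lowest median of IP reads in the family, while its median fold of 4.79 was close to the 5.05 of YTHDC1 and the 5.37 of YTHDF1. Its summits carried 6 to 14 IP reads with a median of 9.0, compared with medians of 24.5 in YTHDF1, 21 in YTHDF2, and 18.0 in both YTHDF3 and YTHDC1. The range overlapped that of YTHDF3, which ran from 7 to 28, but not the 21 of YTHDF2 or those of YTHDF1, from 19, or YTHDC1, from 15. The control was at the floor at 7 of the 9 YTHDC2 summits and at 2 of the 6 in YTHDF3, and at no summit of the other 3 genes. The fewest IP reads behind any peak were 6 at the floor, 14 at a control level of 1.0 (3262 peaks) and 19 at a level of 2.0. All 8 YTHDC2 peaks with a level below 1.0 had fewer than 14. A peak over a higher level needs more reads to be listed, so the ranges cannot be compared apart from the level. In these counts the abundance of an RNA and its binding cannot be told apart.

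**Figure D2:**
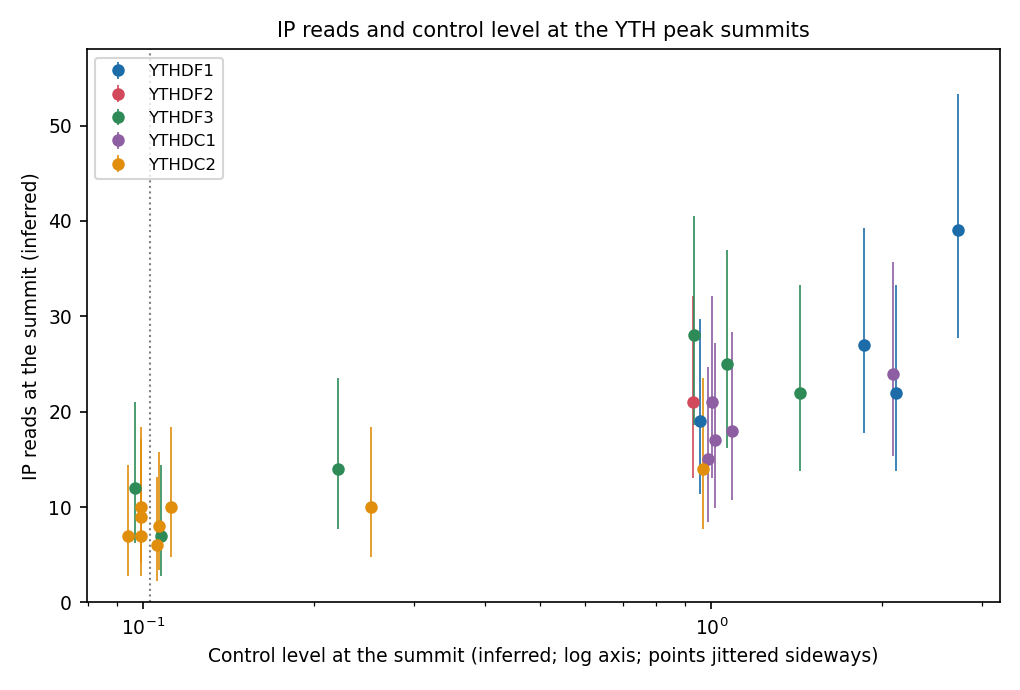
IP reads inferred at each of the 25 YTH summits (vertical axis, bars are 95% exact Poisson intervals) against the inferred control level (log axis, points jittered sideways; dotted line, the floor of 0.103). All YTHDC2 points have 14 IP reads or fewer and 8 of the 9 lie at a level below 1, whereas YTHDF1 points have 19 to 39 IP reads at a level of 1 or more.

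The folds of the YTH peaks were mostly below the median of all peaks. Their median fold was 5.20, with a range of 3.82 to 8.0, against a median of 5.76 and quartiles of 4.79 and 7.22 over all peaks. Of the 25, 7 exceeded that median, 2 equalled it and 16 were below. The YTHDF peaks had a median fold of 5.95 and the YTHDC peaks one of 4.92. The median number of IP reads, 15, equalled that of all peaks. A control level of 1.0 or more was found at 14 of the 25 summits (56.0%), against 30.6% of all summits, and 13 of these 14 lay outside YTHDC2. The control was at the floor at 9 of the 25 (36.0%), against 47.5% of all summits. Over all peaks the median fold was 6.24 at the floor, 5.59 at a level of 1 and 4.44 at a level of 2, so fold falls as the control level rises and does not by itself rank binding between genes.

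By highest fold the order was YTHDF3 (8.0), YTHDF2 and YTHDC1 (6.12 each), YTHDF1 (5.95) and YTHDC2 (5.76). The last 4 are neighbours with small differences. The 21 IP reads at the best YTHDF2 and YTHDC1 summits had an interval of 13.0 to 32.1. It overlaps the intervals at the best summits of YTHDF3, YTHDF1 and YTHDC2. The best YTHDC2 summits had 10 IP reads (4.8 to 18.4), an interval that does not reach those of YTHDF3 or YTHDF1. The control level was 0.103 at these YTHDC2 summits, 1.0 at that of YTHDF3 and 2.68 at that of YTHDF1. A peak over a higher level needs more reads to be listed, so this gap cannot be read apart from the level. These intervals cover IP reads only and leave out the error of the control level, on which the fold also rests. Of the 3685 protein-coding genes with a peak, 38.1% had a highest fold at least as high as YTHDF3, and the share ran from 65.8% to 74.2% for the other members. The median highest fold of these genes was 7.04, which YTHDF3 exceeded and the other 4 did not reach.

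Relative to the length of the span the order was different. YTHDF1 had 19.3 peaks per 100 kb (95% exact Poisson interval 5.26 to 49.5), YTHDF3 13.6 (4.98 to 29.5), YTHDC1 12.6 (4.09 to 29.4), YTHDC2 11 (5.04 to 20.9) and YTHDF2 3.02 (0.0764 to 16.8). All 5 intervals overlap, so no order among the members can be read from these counts. The median over protein-coding genes with a peak was 6.84 per 100 kb, with quartiles of 2.80 and 14.5. YTHDF1 lay above the upper quartile, and 17.0% of these genes were at least as dense. YTHDF2 lay near the lower quartile, and 73.4% were at least as dense. Within the classes by span, at least as many peaks as in YTHDF1 were found in 4.89% of all genes of its class and 36.6% of those with a peak. The same shares were 8.59% and 26.5% for YTHDC2, 9.83% and 35.2% for YTHDF3, and 12.2% and 43.8% for YTHDC1. For YTHDF2, with 1 peak, 19.8% of its class had at least as many, which is every gene of the class with a peak. The median count of genes with a peak in the class was 2 for YTHDF1, 3 for YTHDF2, 4 for YTHDF3 and YTHDC1, and 5 for YTHDC2.

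**Figure D3:**
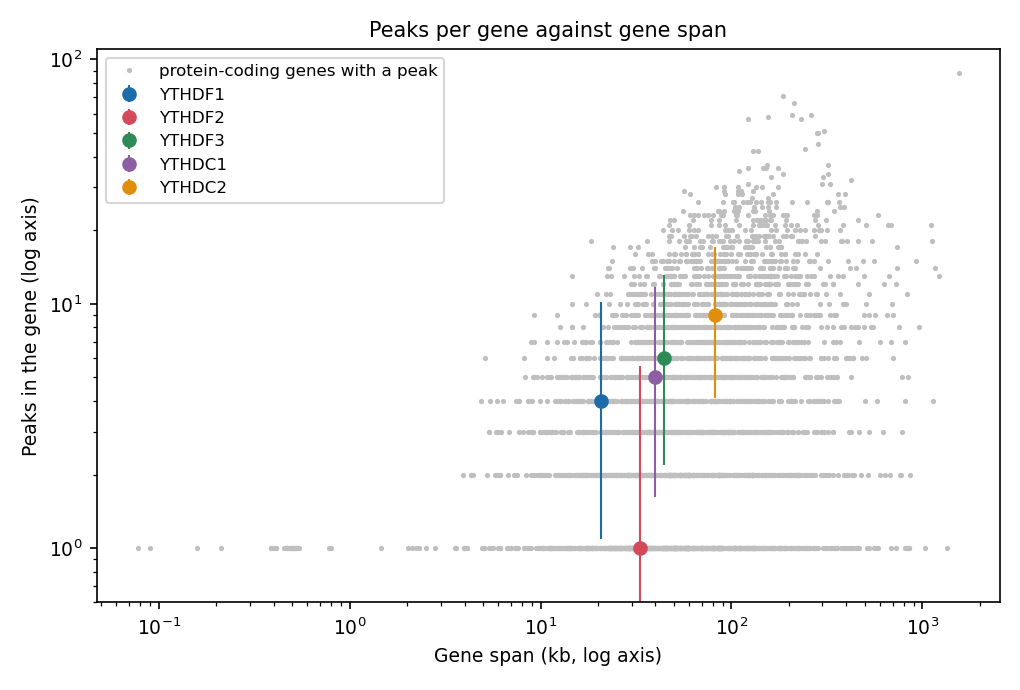
Number of peaks (log axis) against gene span in kb (log axis) for all 3685 protein-coding genes with a peak (grey) and the YTH genes (coloured, with 95% exact Poisson intervals). The YTH genes lie within the cloud, with 1 peak in YTHDF2 to 9 in YTHDC2.

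More of the YTH summits lay on the 5′ side of their genes than on the 3′ side. With each span divided into 3 equal parts in the direction of transcription, all 5 genes had a summit in the first part, and 16 of the 25 summits (64.0%) lay there. The middle part held 8, of which 5 were in YTHDC2. The last part held 1, in YTHDF3. Over all protein-coding genes of 20 kb or more with a known strand, 27.3% of 18354 summits lay in the first part, 31.0% in the middle and 41.7% in the last. Counted by gene, 75.2% of 2735 such genes had a summit in the first part, beside 5 of 5 here, and 60.3% had one in the last, beside 1 of 5. The contrast was smaller against genes of similar length. In the 1427 genes with spans from 20.7 to 81.6 kb, the range of the YTH genes, 36.3% of summits lay in the first part and 31.7% in the last. Of these genes 79.6% had a summit in the first part, so that 5 of 5 is near the background there, and 50.2% had one in the last part. The stretch without a summit at the 3′ side was 8.02 kb in YTHDF1, 21.8 kb in YTHDC1, 27.6 kb in YTHDC2 and 31.5 kb in YTHDF2. Neighbouring peaks of a gene share a transcript, so the 25 summits are not independent, and the contrast rests on 5 genes.

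**Figure D4:**
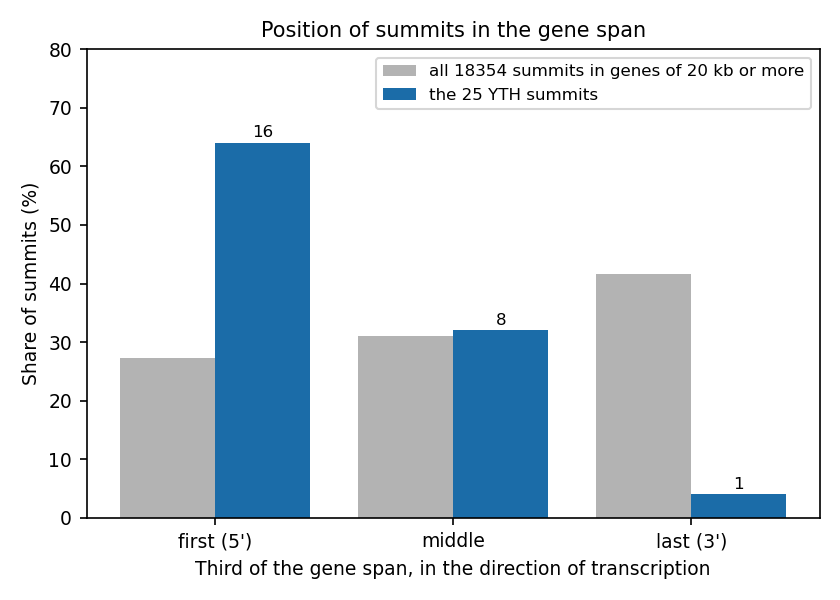
Share of summits (%) in the first, middle and last of 3 equal parts of the gene span in the direction of transcription, for the 25 YTH summits (blue, counts above the bars) and all 18354 summits in protein-coding genes of 20 kb or more (grey). The YTH summits fall from 64.0% to 4.0% along the gene, whereas the share of all summits rises from 27.3% to 41.7%. In genes within the span range of the YTH genes (20.7 to 81.6 kb, not drawn) the share falls from 36.3% to 31.7%.

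Part of this was a peak at the start itself. A summit within 500 bp downstream of the 5′ end was present in YTHDF1 (35 bp), YTHDC2 (49 bp), YTHDF3 (129 bp) and YTHDC1 (353 bp), and the YTHDF2 summit lay further in at 1681 bp. Such a summit was common in the list as a whole, in 1399 of 3107 genes with a peak and a known strand (45.0%). It was present in 53.2% of those with 4 to 9 peaks, a range that leaves out YTHDF2 with 1 peak. With 5 genes, the 4 of 5 seen here is a description beside the 45.0%. The median distance of all 1437 such summits was 92.0 bp from the start. No YTH gene had a summit within 500 bp of the 3′ end, where 1.42% of genes had one. Within 5 kb of either end lay 9 of the 25 YTH summits (36.0%), against 23.4% of 19375 summits in genes of any span with a known strand. Such windows cover more of a short span than of a long one, so the shares are not matched for length.

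Of the 10 nearest protein-coding neighbours of the YTH genes 1 had a peak, beside 18.4% of all protein-coding genes. No gene overlapped any of the 5 spans. The closest summit outside a span was 32.4 kb away for YTHDF2, whose upstream neighbour GMEB1 held 2 peaks, and between 281.0 and 1450.0 kb away for the other members. The neighbours BIRC7 and BHLHE23 of YTHDF1, OPRD1 downstream of YTHDF2, TMPRSS11E and TMPRSS11B of YTHDC1 and MCC and KCNN2 of YTHDC2 held no peak. The same was true of TTPA and LOC124900252 on the sides of YTHDF3. The YTHDF genes have annotated pseudogene copies, which can take reads from their parents. No peak overlapped YTHDF1P1, YTHDF2P1 or YTHDF3P1, nor the divergent transcript YTHDF3-DT, although reads lost to these copies were not measured.

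Other genes of the m6A system also carried peaks, and several had higher folds. Of 20 other genes for m6A readers, writers and erasers 13 (65.0%) had a peak, against the 18.4% of all protein-coding genes. Their median span was 47.1 kb for the readers, 29.6 kb for the writers and 222 kb for the erasers. Over all protein-coding genes it was 24115 bp. Length and expression were not matched, so these shares are not like for like. Of the 13, 7 had a highest fold above that of every YTH gene. Among all protein-coding genes with a peak, 38.1% had a highest fold at least as high as YTHDF3. Among 9 readers without a YTH domain 5 had a peak, namely FMR1 (12.6 over 14 peaks), EIF3A (9.86), IGF2BP3 (9.16), HNRNPC itself (7.22 over 18 peaks) and IGF2BP1 (4.9), while HNRNPA2B1, RBMX, IGF2BP2 and PRRC2A had none. Of the 9 writer genes, 6 had a peak, with RBM15 at 9.19, VIRMA, the scaffold of the methyltransferase complex, at 8.39 and METTL16 at 8.19. METTL3, METTL14 and RBM15B had none. Both demethylase genes had a peak, FTO at 11.1 and ALKBH5 at 4.7. A summit within 500 bp of the start was present in 5 of the 11 with a peak and a known strand (45.5%), beside 45.0% of all such genes.

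Genes of some partners of the YTH proteins were listed in the same way. YTHDF2 recruits the CCR4-NOT deadenylase, which shortens poly(A) tails. Of its 11 subunit genes 9 (81.8%) had a peak, beside 18.4% of all protein-coding genes. The highest folds were in the scaffold CNOT1 (16.8 over 35 peaks), the deadenylase CNOT6 (14.3 over 13 peaks) and CNOT2 (12.6). CNOT3 and CNOT11 had none. Of 7 splicing, processing and export factors known to bind YTHDC1, SRSF10 alone had a peak (8.69 over 4 peaks), a share of 14.3% that is near the background of 18.4%. Of 4 genes linked to YTHDC2, the exonuclease gene XRN1 had 14 peaks with a highest fold of 6.24, and MEIOC, RBM46 and UPF1 had none. The median span was 84.0 kb for the CCR4-NOT genes and 16.0 kb for the YTHDC1 partners, which bears on how often a gene carries a peak.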

How the data were processed

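Per the submitters' processing notes, HISAT2, MACS2, bedtools and build hg38 were used; versions, settings and the control are not given in the sources used here. The deposited peak list gives a fold enrichment (ratio), a −log10 p, a −log10 q and a score, which in each of the 23148 peaks was 10 times that −log10 q without its decimals. Library totals are unknown.

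By their summits, peaks of chromosomes 1 to 22, X and Y were assigned to RefSeq gene spans of GRCh38.p14, 1-based. A summit in several spans counted for each. The assignment used position alone, so a peak in a span is not tied to RNA of the gene's own strand. Strand came from RefSeq promoter records, which 4 of the 5 members have, or from a divergent transcript, and 578 genes with a peak had none. IP reads and control level were solved from fold and p, to within 0.001 in −log10 p; 99.8% of peaks, and all 25 YTH peaks, had 1 solution. On data simulated with this same form, both were recovered in 100.0% of 3184 peaks. The simulated control levels were the floor or whole numbers only. This checks the solving and not whether the form holds. Intervals are 95% exact Poisson. Members, gene lists and named genes (all members, up to 4 genes of a list by fold and those without a peak, nearest neighbours) were chosen with earlier results of these data known; the 500 bp window and the 3 parts of the span were chosen after their values were seen. Planned results on exons, U-runs and DRACH sites inside the peaks need a genome and were not analysed here. Python 3.11.15, numpy 2.4.6, pandas 2.3.3 and scipy 1.17.1 were used.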

Additional observations from a re-analysis of the deposited data

How the results depend on the processing

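Of 76 values under an alternative, 74 kept to within 1.5 times the main count or, for folds, to the same highest fold or within the quartiles of all peaks. Some of these could not move, so the 74 includes values fixed in advance. No YTH summit was shared with another gene, and a minimum fold cannot lower a highest fold that lies above it. With q of 0.001 or less YTHDC2 kept 5 of its 9 peaks; the 5 genes together kept 18 of 25, and each kept at least 1. With peaks under 1000 bp apart merged, YTHDC1 had 3 in place of 5, as its run of neighbouring peaks became 1, and the total was 20. A fold of 4 or more, any overlap, and at least as much of the peak inside the span as outside left 24 or 25 peaks. The windows of 250 bp and 1000 bp and the stricter q at the start, chosen after seeing the data, gave 3, 4 and 4 genes with a summit there. Counting summits in several protein-coding spans for none gave 3440 genes with a peak in place of 3685. Depth limits these counts: summits rest on 6 to 39 IP reads, and a gene without a peak may hold binding that was not detectable.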
